A study of Caenorhabditis elegans with 5 samples.

Results

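The nuclear genes for the proteins of the mitochondrial ribosome were described in a map of where ATTF-4 sits on the genome of Caenorhabditis elegans. All protein-coding genes of the Ensembl annotation (build WBcel235, the same assembly as ce11) whose name begins with mrpl (large subunit) or mrps (small subunit) were taken. They numbered 70 of 19985 protein-coding genes, 41 of the large and 29 of the small subunit. The choice rests on names alone and used no measured value, though earlier results of these data were known when it was made. A ribosomal gene under another name, such as dap-3, which encodes a GTP-binding protein of the small subunit, was therefore not included. ATTF-4 (gene C05D10.1) has an AT-hook, a short motif that contacts the minor groove of DNA. Chromatin immunoprecipitation with sequencing (ChIP-seq), which recovers the DNA bound by a protein, was done on whole L4 larvae of strain OP219, with both sexes pooled. This strain, unc-119(ed3) III; wgIs219, carries an integrated transgene for the protein with GFP and FLAG at its C-terminal end. There were 3 biological replicates, all of the same group. Replicate 1 was sequenced as 1 library, and replicates 2 and 3 as 2 libraries apiece, which makes 5. There was no second genotype, stage or treatment, so every comparison below sets these genes beside other genes in the same lists. All tissues of the larva contribute to a list, and binding in a few cells cannot be told apart from weak binding in many.

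Mitochondrial ribosomes make the few respiratory chain subunits that the mitochondrial genome still encodes. Their proteins are encoded in the nucleus, translated in the cytosol and imported, and they join ribosomal RNAs transcribed inside the organelle. In C. elegans, reduced expression of several of these genes, mrps-5 among them, is known to induce the mitochondrial unfolded protein response and to lengthen life.

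The measurement is a list of peaks, which are places where sequenced fragments pile up over a control. Each peak has a summit, its highest point, and a signal value given by the authors' peak caller. Signal has no unit and was compared only within a list. Its percentile in that list (100 is the strongest peak) was used to set lists side by side. Lists of 30000, 22227 and 30000 peaks were deposited for replicates 1, 2 and 3, and one of 24897 peaks for all of them together, called the pooled list here. These lists keep many entries with little statistical evidence, and in the pooled list the −log10 q-value had a median of 0.144. The final set, deposited as the optimal set of peaks under a threshold on the irreproducible discovery rate, held 173 peaks. It was made from all 3 replicates. A gene was counted where a summit lay from 1000 bp upstream to 200 bp downstream of its 5′ end. The lists hold no read counts, so the depth behind each value is unknown.

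The sequences under the strongest peaks of these genes are shown because they are what the pooled list offers as the best candidate binding places. Each runs 5′ to 3′ on the gene's strand, 75 bases on each side of the summit, and the capitals mark the 21 bases centred on the summit. They were read from the RefSeq genome of build WBcel235. They lie at chrV:1821413-1821563 (plus strand) for mrpl-39, chrIV:14767856-14768006 (minus strand) for mrps-7, chrIII:1202031-1202181 (minus strand) for mrpl-45, chrV:12728453-12728603 (plus strand) for mrpl-49, chrII:156064-156214 (minus strand) for mrpl-28 and chrIV:443770-443920 (plus strand) for mrpl-55. All 6 lie between annotated genes.
mrpl-39: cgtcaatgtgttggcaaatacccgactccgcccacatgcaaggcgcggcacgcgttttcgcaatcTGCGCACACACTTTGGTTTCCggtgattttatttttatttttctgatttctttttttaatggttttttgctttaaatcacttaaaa
mrps-7: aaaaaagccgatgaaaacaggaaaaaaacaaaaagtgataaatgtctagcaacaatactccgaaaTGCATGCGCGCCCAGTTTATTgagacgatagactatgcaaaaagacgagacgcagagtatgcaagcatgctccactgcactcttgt
mrpl-45: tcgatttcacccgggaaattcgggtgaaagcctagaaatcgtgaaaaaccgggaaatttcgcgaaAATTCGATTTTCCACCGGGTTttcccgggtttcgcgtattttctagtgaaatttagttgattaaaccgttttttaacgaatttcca
mrpl-49: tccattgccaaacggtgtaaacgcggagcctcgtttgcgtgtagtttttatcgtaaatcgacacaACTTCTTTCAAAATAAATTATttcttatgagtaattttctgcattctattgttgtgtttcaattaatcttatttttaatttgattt
mrpl-28: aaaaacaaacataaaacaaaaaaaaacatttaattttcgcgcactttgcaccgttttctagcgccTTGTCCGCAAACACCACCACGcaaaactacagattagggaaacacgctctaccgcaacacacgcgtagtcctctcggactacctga
mrpl-55: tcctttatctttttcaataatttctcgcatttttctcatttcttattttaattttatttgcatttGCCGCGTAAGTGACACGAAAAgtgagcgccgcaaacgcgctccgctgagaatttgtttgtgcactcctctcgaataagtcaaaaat

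No mitochondrial ribosomal protein gene had a final-set peak in its window, 0 of 70, where 0.445% of all protein-coding genes had one. In the pooled list 33 of the 70 genes had a summit in the window (47.1%), beside 32.3% of all protein-coding genes. The share was 48.8% (20 of 41) for the large and 44.8% (13 of 29) for the small subunit. Cytosolic ribosomal protein genes, which build the other ribosome of the same cells, had a pooled peak in 67 of 81 windows (82.7%) and a final-set peak in 7. The nuclear genes of the respiratory chain had a pooled peak in 41 of 71 windows (57.7%) and a final-set peak in 4. Of 25 other genes for gene expression in mitochondria, such as aminoacyl-tRNA synthetases and elongation factors, 9 had a pooled peak and 0 a final-set peak. Mitochondrial ribosomal protein genes thus stood above all genes in the pooled list and below the genes of the cytosolic ribosome and of the respiratory chain. When each peak counted only for the gene with the nearest 5′ end, the shares were 31.4% for these genes, 48.1% for the cytosolic ribosome, 36.6% for the respiratory chain and 26.9% for all protein-coding genes. Chromosome III carried the most of them, 22, and 10 of those had a pooled peak, beside 38.3% of all protein-coding genes of that chromosome. None of the 70 lies on chromosome X, which carries 13.7% of protein-coding genes, and 31.8% of autosomal protein-coding genes had a pooled peak. Genes with family numbers within the bacterial range (below 37 for the large and below 22 for the small subunit) had a pooled peak in 22 of 41 cases, and those numbered above it in 11 of 29.

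**Figure D1:**
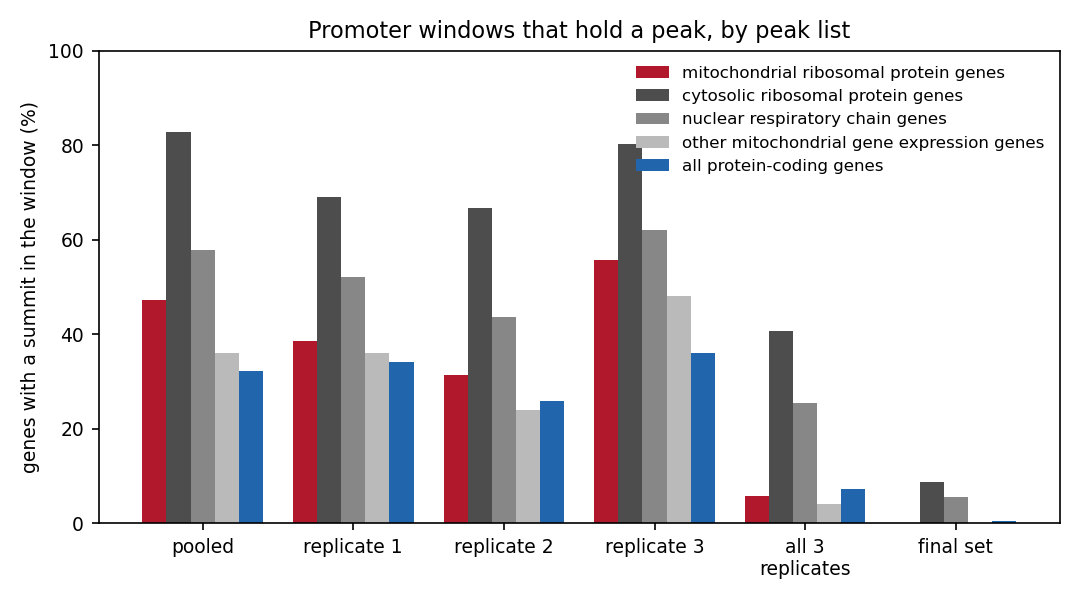
Percentage of genes with a peak summit in the promoter window, for each peak list (x axis). Bars stand for gene lists. In the pooled list the mitochondrial ribosomal protein genes (47.1%) lie below the cytosolic ribosomal protein genes (82.7%) and above all protein-coding genes (32.3%). In all 3 replicate lists together they lie at 5.71%, near the 7.22% of all protein-coding genes, and in the final set at 0%, beside 0.445%.

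The peaks that were present were of middling strength. The strongest pooled peak per gene had a median signal of 9.67 over the 33 genes, with values from 7.05 to 22.6, and a median percentile of 54.3. Over all protein-coding genes with a pooled promoter peak the median was 9.98, at percentile 58.3. The median was 14.0 for cytosolic ribosomal protein genes and 13.1 for respiratory chain genes. Only 5 of the 33 genes (15.2%) had a peak in the strongest 10% of the pooled list, beside 29 of 67 cytosolic ribosomal protein genes (43.3%), 14 of 41 respiratory chain genes (34.1%) and 15.5% of all genes with a pooled promoter peak. Among the 1000 strongest pooled peaks were those of mrpl-39 and mrps-7, which makes 2 of 70 genes (2.86%) beside 2.41% of all protein-coding genes. The same 1000 peaks reached 17 of 81 cytosolic ribosomal protein genes (21.0%) and 9 of 71 respiratory chain genes (12.7%). The weakest peak of the final set had a signal of 29.4, above every peak in the windows of the 70 genes. For scale, the strongest promoter peaks of the other lists belonged to rpl-3 (82.5), rpl-20 (67.6) and rpl-15 (53.2) of the cytosolic ribosome. Those of the respiratory chain were cox-5A (38.6), cox-5B (37.5) and atp-3 (32.2), which encode cytochrome oxidase and ATP synthase subunits. Among the other mitochondrial genes ears-2 (21.9), mtss-1 (15.4) and tufm-1 (14.6) led.

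**Figure D2:**
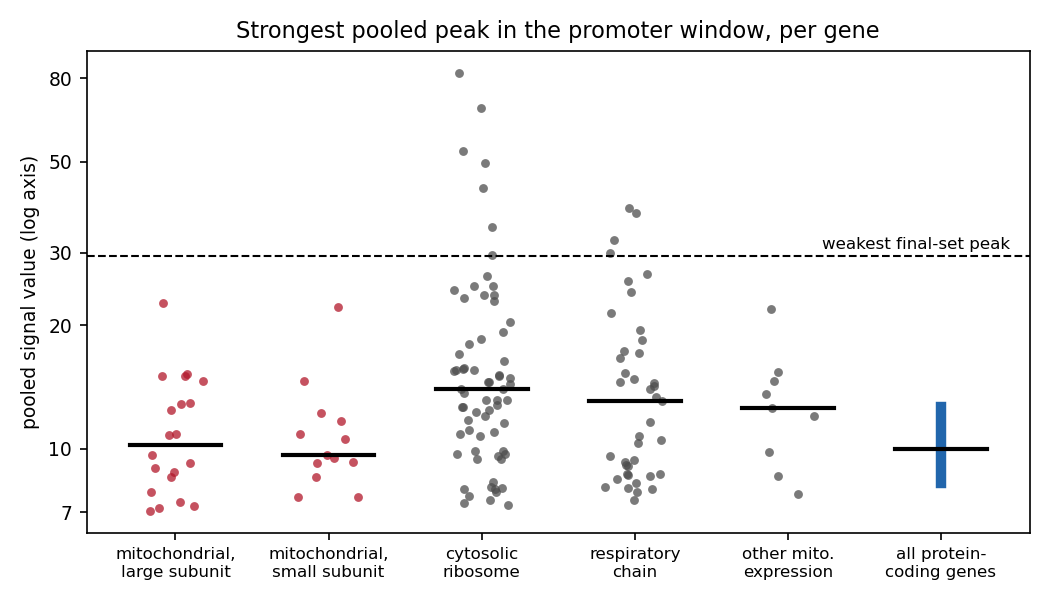
Signal of the strongest pooled peak in the promoter window (log axis), 1 point per gene that has one, with the black bar at the median. For all protein-coding genes only the median and the range from the lower to the upper quartile are drawn. All points of both mitochondrial ribosomal subunits lie under the weakest final-set peak (29.4), and the highest are mrpl-39 (22.6) and mrps-7 (22.2).

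Among large subunit genes mrpl-39 had the strongest peak, with a signal of 22.6 and the summit 91 bp before the 5′ end. In mammals the protein it encodes has no counterpart in the bacterial ribosome. Its peak ranked 478 of 24897 and had a −log10 q-value of 1.94. Within 100 bp of that summit, replicate 1 had a peak of signal 5.69 (percentile 80.1), replicate 2 had none, and replicate 3 had one of 10.3 (percentile 94.5). The replicate 1 summit lay 9 bp downstream of the 5′ end, 100 bp from the pooled summit and thus at the limit for a match. That of replicate 3 lay 170 bp upstream of the 5′ end, 79 bp from the pooled summit on its other side. Replicates 1 and 3 thus both had a peak near the pooled summit but did not place it at the same position. The summit also lies in the window of gly-7, which starts on the opposite strand, so the peak cannot be assigned to 1 of the genes.

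The next large subunit peaks had nearly equal pooled signals, 15.2 for mrpl-45, 15.0 for mrpl-49, 15.0 for mrpl-28 and 14.7 for mrpl-55, and all had summits 98 to 140 bp upstream of the gene. The gene mrpl-45 encodes a protein whose mammalian counterpart tethers the ribosome to the inner membrane. Its peak was matched within 100 bp in replicate 1 (signal 6.12) and in replicate 3 (8.43) and not in replicate 2, and its summit also lies in the window of the divergent gene Y119D3B.12. The peak of mrpl-28, which encodes a protein of a family shared with bacteria, was matched only in replicate 3, with a signal of 11.7. The peak of mrpl-55 was likewise matched only in replicate 3, at 9.95. That of mrpl-49 was matched only in replicate 1, at 3.39 (percentile 37.1). The mrpl-49 peak lies in the space shared with the divergent gene rpl-28, a cytosolic ribosomal protein gene, and was the only pooled peak in a mitochondrial ribosomal window that also lay in the window of a cytosolic one.

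Some of the genes encode proteins along the tunnel through which the new chain leaves the ribosome. The peak of mrpl-4, which encodes a tunnel-lining protein, had a signal of 12.5 with the summit 39 bp inside its first exon, and was matched in replicate 1 alone (6.50). The gene mrpl-47, whose product belongs to a family at the tunnel exit, had a pair of upstream peaks of 9.67 and 9.36. The gene mrpl-23, also of the tunnel exit, had a peak of 8.99 in an exon of its upstream neighbour fars-1, a phenylalanyl-tRNA synthetase gene. The tunnel gene mrpl-22, named after its value was seen, had the weakest peak of the 33 genes, 7.05. No peak of any list lay in the window of mrpl-24.

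Others encode the flexible stalk, the arm that recruits translation factors. The gene mrpl-10, for the base of the stalk, had a peak of 12.8 at 287 bp upstream, in an exon of clec-142, with 8.68 in replicate 1 (percentile 95.9) as its only match. The stalk gene mrpl-12 had a weak peak of 7.42 at 622 bp upstream, within reach of 2 other genes and with no match in any replicate. The gene mrpl-11 had no pooled peak. The peak of mrpl-32, whose product is cut by a mitochondrial protease during assembly in yeast and mouse, had a signal of 12.9 and matches of 2.57 in replicate 1 and 6.95 in replicate 3. The other large subunit genes with a pooled peak among the 30 strongest were mrpl-48 (10.9), mrpl-51 (10.8), mrpl-40 (9.22), mrpl-9 (8.79), mrpl-13 (8.52) and mrpl-34 (7.84).

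Among small subunit genes mrps-7 stood alone, with a signal of 22.2 at rank 508, 201 bp upstream of the 5′ end. It encodes a protein of the family that starts assembly of the head of the bacterial small subunit. Replicate 1 had a matching peak of 6.19 (percentile 84.7), replicate 2 none, and replicate 3 one of 14.0 (percentile 98.5), the highest replicate 3 value of the 70 genes. The summit also lies in the window of the divergent gene Y57G11C.3. With mrpl-39 it was the only peak of the 37 with a −log10 q-value above 1.3, which corresponds to a q-value of 0.05. The share of all pooled promoter peaks above that cut is not at hand, so this count has no background beside it.

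The second small subunit gene was mrps-2, with a signal of 14.6 in its own intron, 99 bp downstream of the 5′ end, and matches of 5.75 in replicate 1 and 4.66 in replicate 3. It lies 105 bp upstream of mrpl-4 on the same strand, so a large and a small subunit gene follow each other there, and each had its own pooled peak. Members of the mrps-18 family, which has several copies in animals, had peaks of 12.2 (mrps-18C), 10.8 (mrps-18A) and 9.22 (mrps-18B), and the gene listed as mrps-18.C had no pooled peak. Each of the peaks named for the family had 0 or 1 replicate matches. The remaining small subunit genes with a peak were mrps-15 (11.7), mrps-23 (10.6), mrps-21 (9.64), mrps-10 (9.50), mrps-14 (9.25), mrps-31 (8.52), mrps-11 (7.63) and mrps-6 (7.62). Of these only mrps-15 and mrps-23 lie above 9.98, the median of all genes with a pooled promoter peak.

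Replicate lists were then read one by one. A summit lay in the window of 27 genes in replicate 1 (38.6%), beside 34.1% of all protein-coding genes. Replicate 2 gave 22 genes (31.4%), beside 25.8%, and replicate 3 gave 39 (55.7%), beside 36.0%. A peak in all 3 lists was found for 4 genes, mrpl-49, mrps-2, mrps-11 and mrps-14, which is 5.71% beside 7.22% of all protein-coding genes. The share was 40.7% (33 of 81) for cytosolic ribosomal protein genes and 25.4% for respiratory chain genes. A peak in exactly 2 of the lists was found for 28 genes, or 40.0%, beside 19.3% of all protein-coding genes. A peak in 1 list was found for 20 genes (28.6%), beside 35.8%, and in none for 18 (25.7%), beside 37.7%. The share was thus above that of all genes in replicate 3 and for exactly 2 lists. In replicates 1 and 2 it was higher too, but near that of all genes. For all 3 together, with only 4 genes, it was near that of all genes.

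Summit positions separated the replicates further. Of the 4 genes only mrps-14 had a pooled summit matched within 100 bp in every replicate. That summit lies 985 bp upstream of mrps-14 in an exon of nrde-2, a nuclear RNA interference gene. Its replicate signals were 2.46, 7.50 and 4.46, at percentiles 5.21, 97.7 and 31.6, so it was strong in replicate 2 alone. For mrps-11 the strongest summits in replicates 1 and 2 lay at the 5′ end and 53 bp downstream of it, and that of replicate 3 lay 449 bp upstream. Over the 37 pooled peaks in these windows, 11 had no replicate match, 17 had 1, 8 had 2 and 1 had 3 (2.70%). Of the 6413 pooled promoter peaks of all genes, 1521 had no match, 3265 had 1, 1390 had 2 and 237 had 3 (3.70%). For cytosolic ribosomal protein genes 16.4% had 3 matches. The share with 2 or 3 matches was 24.3% for mitochondrial ribosomal protein genes, near the 25.4% of all genes.

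Replicate 2 was the list in which the stronger peaks of these genes were missing. Of the 20 peaks in the stronger 50% of the pooled list, 11 had a match in replicate 1, 1 in replicate 2 and 10 in replicate 3. For all protein-coding genes the shares in the stronger 50% were 41.6%, 28.7% and 58.1%, and for cytosolic ribosomal protein genes 43.1%, 46.6% and 70.7%. In the weaker 50% 6 of 17 peaks (35.3%) had a match in replicate 2, beside 15.4% for all protein-coding genes. For cytosolic ribosomal protein genes it was 0 of 15. Over all 37 peaks the replicate 2 share was 18.9%, beside 22.6% for all protein-coding genes. The list of replicate 2 is the shortest, and the part of its length in this pattern was not tested.

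The genes with the strongest peaks of a list were not the same in each replicate. The strongest 10% of replicate 1 held 1 of the 70 genes, mrpl-10 (1.43%), beside 4.44% of all protein-coding genes. That of replicate 2 held 3 (4.29%), beside 3.63%, and these were mrps-14, mrps-10 and mrpl-23, with signals of 7.50, 7.02 and 7.02. That of replicate 3 held 7 of 70, beside 5.56% of all protein-coding genes, namely mrps-7 (14.0), mrpl-13 (12.1), mrpl-28 (11.7), mrps-17 (10.5), mrpl-15 (10.3), mrpl-39 (10.3) and mrpl-55 (9.95). Of these, mrps-17 and mrpl-15 were named after their values were seen. In all, 11 of the 70 genes (15.7%) were in the strongest 10% of some replicate list, beside 11.1% of all protein-coding genes. None of the 70 genes appeared in the strongest 10% of more than 1 replicate, which is near the 2.13% of all protein-coding genes. Of cytosolic ribosomal protein genes 17.3% did, and of respiratory chain genes 12.7%.

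**Figure D3:**
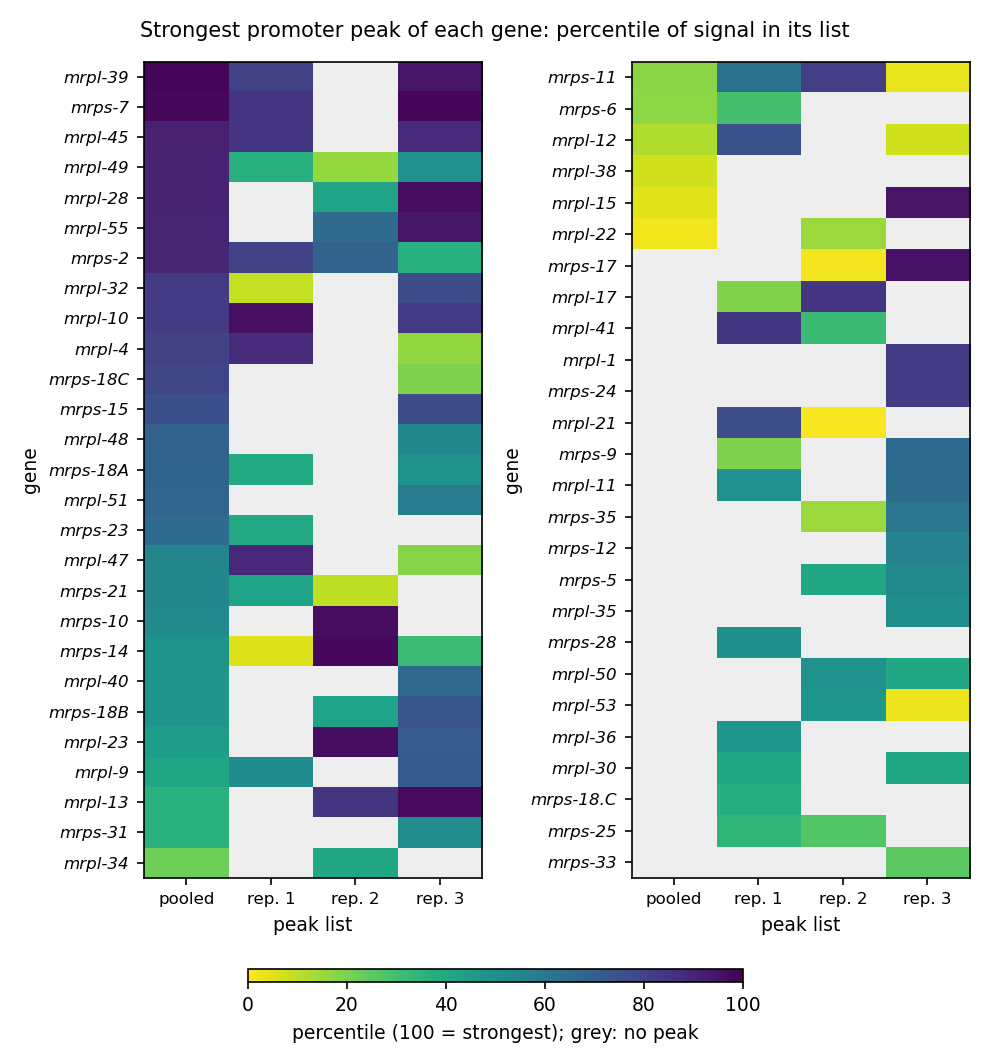
Percentile of signal of the strongest promoter peak for each mitochondrial ribosomal protein gene with a peak in any list (rows), in the pooled list and the 3 replicate lists (columns). Dark cells are strong peaks and grey cells mean no peak in the window. Peaks above percentile 90 fall on different genes in each replicate: mrpl-10 in replicate 1, mrps-14, mrps-10 and mrpl-23 in replicate 2, and mrps-7 among 7 genes in replicate 3. Of all protein-coding genes only 2.13% have such a peak in 2 or more replicates. At a lower level, mrps-7, mrpl-39, mrpl-45 and mrpl-10 are above percentile 80 in both replicate 1 and replicate 3. Of these, mrpl-39 is only just above it in replicate 1 (80.1). The share of all protein-coding genes at that level is not at hand, so these names have no background beside them. The summits of replicates 1 and 3 lie apart for mrpl-10 (278 and 484 bp upstream). They also do for mrpl-39 (9 bp downstream and 170 bp upstream).

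Summits lay throughout the window. Their median position over the 37 pairs of gene and peak was 337 bp upstream of the 5′ end (quartiles 622 and 103 bp upstream), beside 324 bp for all protein-coding genes. The stretch from 500 to 251 bp upstream held 24.3% of the pairs of these genes, beside 51.3% of those of cytosolic ribosomal protein genes and 21.9% of those of all protein-coding genes. The 6 strongest peaks of the 70 genes all lay 91 to 201 bp upstream. The next in order of signal lay elsewhere, 99 bp downstream for mrps-2 (14.6) and 368 bp upstream for mrpl-32 (12.9). Positions of the strongest peaks of all protein-coding genes are not at hand, so these positions have no background beside them. Of the 37 summits 19 lay between genes, 14 in an exon and 4 in an intron. A gene outside the 70 shared the summit in its own window in 12 of the 37 pairs. In 25 pairs, from 22 genes, the mitochondrial ribosomal gene had the nearest 5′ end.

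**Figure D4:**
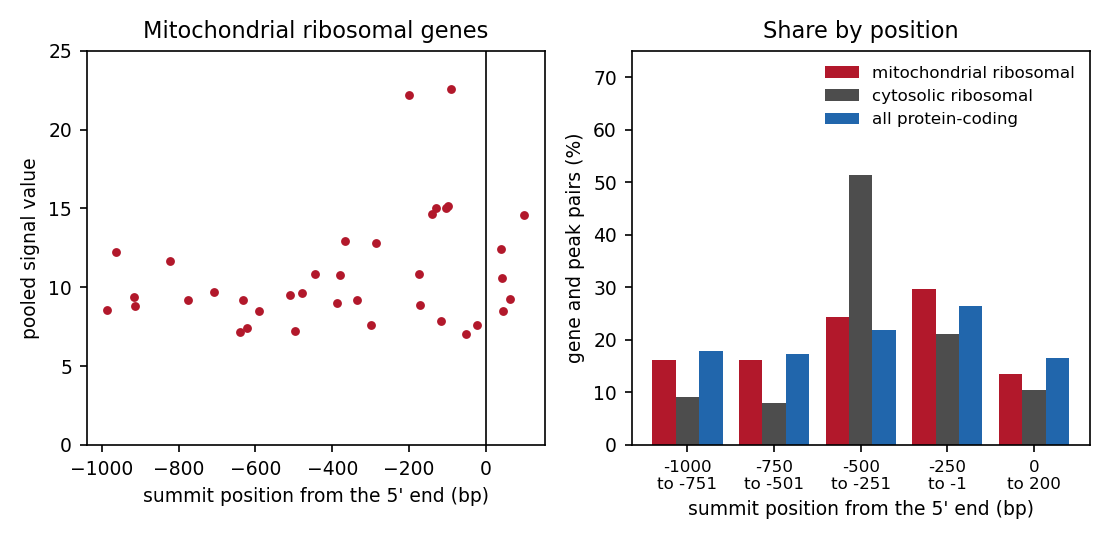
Left, pooled signal (y axis) of each of the 37 peaks of mitochondrial ribosomal protein genes against the position of its summit from the 5′ end in bp (negative is upstream). Right, percentage of gene and peak pairs by position. The strongest peaks of the 70 genes, those of mrpl-39 and mrps-7, lie 91 and 201 bp upstream of the start. Positions of the strongest peaks of all genes are not at hand. Of the pairs of the 70 genes 24.3% fall from 500 to 251 bp upstream, against 51.3% for the cytosolic ribosomal protein genes.

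Many of these genes lie close behind another gene. In C. elegans, genes closely spaced on 1 strand are often transcribed together as an operon from a promoter far upstream, and the window then covers a neighbour. The nearest upstream protein-coding gene was on the same strand within 500 bp, or overlapping, for 29 of the 70 genes (41.4%), beside 20.6% of all protein-coding genes. The gap was 81 to 120 bp for 19 of the 29, with a median of 105 bp. A pooled peak was present for 9 of these 29 genes (31.0%), against 16 of 27 genes (59.3%) whose neighbour lay on the opposite strand within 1000 bp and 8 of 14 others (57.1%). Among all protein-coding genes the shares were 37.1%, 37.9% and 28.4%. In the replicate 3 list the difference was smaller, with 16 of 29, 16 of 27 and 7 of 14 genes, beside 40.4%, 40.4% and 32.8% of all protein-coding genes. The arrangements thus stood closer together in that replicate than in the pooled list. In replicate 1 the share of the same-strand genes lay between those of the other arrangements, and in replicate 2 it was the highest. For replicates 1 and 2 the shares of all genes by arrangement are not at hand. The pooled share behind a same-strand neighbour, 31.0%, was near the 37.1% of all such genes. It was the lowest of the arrangements in the pooled list but not in any replicate list.

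**Figure D5:**
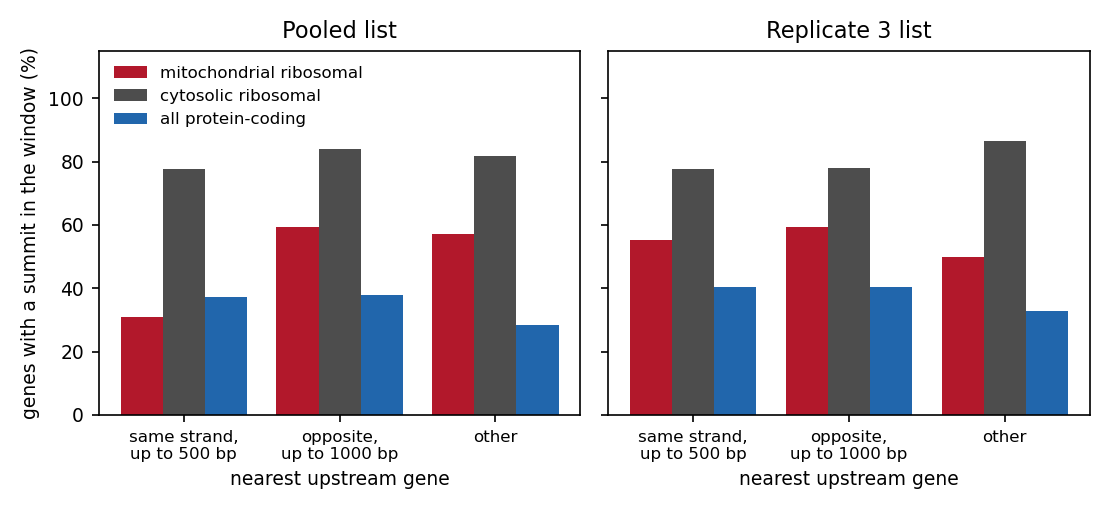
Percentage of genes with a summit in the promoter window by the strand and distance of the nearest upstream protein-coding gene, in the pooled list (left) and the replicate 3 list (right). Bars stand for gene lists. For mitochondrial ribosomal protein genes behind a same-strand neighbour the share is 31.0% in the pooled list and 55.2% in replicate 3. For all protein-coding genes so placed it is 37.1% and 40.4%.

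The DNA under these peaks was close to that under promoter peaks in general. GC content within 100 bp of the summit averaged 36.2% ± 4.56 (SD over 37 peaks) for these genes, 39.0% ± 7.08 for cytosolic ribosomal protein genes (73 peaks) and 37.05% ± 7.02 for all protein-coding genes. The 250 bases upstream of the 5′ end were poorer in GC, at 30.2% ± 4.93 over the 70 genes, beside 30.6% for cytosolic ribosomal protein genes, 31.4% for respiratory chain genes and 33.8% ± 5.91 over all genes, and were nearly the same for genes with (30.6%) and without (29.8%) a pooled peak.

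Letters were searched on both strands within 100 bp of each summit. CCTGCG, a leading run of letters of the final set in earlier results of these data, was found at 0 of 37 peaks, beside 3.12% of all pooled promoter peaks, 6 of 73 for cytosolic ribosomal protein genes and 6 of 48 for respiratory chain genes. AAATTT, a run of the kind an AT-hook can contact, was found at 14 of 37 (37.8%), beside 35.3% of all. GAGAGA, a common promoter repeat, was found at 4 of 37 (10.8%), beside 17.6%. TGCGC, chosen after the sequences shown above were read, occurs in those of mrpl-39, mrps-7 and mrpl-28. It was found at 6 of 37 peaks (16.2%), beside 15.2% of all, 28.8% for cytosolic ribosomal protein genes and 37.5% for respiratory chain genes, and it can overlap CCTGCG. A match is a description of the letters in the window and no evidence of a binding site.

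Peaks just outside the window were also listed, with genes named after their values were seen. The nearest final-set summit to any of the 70 genes lay 1030 bp upstream of mrpl-23, so it missed the window by a short stretch. It lies in an intron of fars-1 at chrI:6212755-6213074, within 200 bp of the snoRNA gene T08B2.13, and had a signal of 30.7. The replicates gave 9.63, 5.33 and 13.9 there, at percentiles 97.4, 89.4 and 98.4, so all 3 held it. The 5′ end of mrpl-23 was the nearest of any protein-coding gene. The median distance from the 5′ end of the 70 genes to the nearest final-set summit was 184340 bp. On the other side of the window, mrpl-37 had no promoter peak in any list but an intronic pooled peak of 15.96 at chrII:13574657-13574976, 251 bp downstream of its 5′ end. The replicates gave 4.77, 3.35 and 8.45 there, and it was the only pooled peak in the body of these genes, outside their windows, that all 3 replicates matched.

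No pooled or replicate summit lay in the window of 17 of the 70 genes (24.3%), beside 35.4% of all protein-coding genes. Of the 17, 11 were of the large and 6 of the small subunit. They include mrpl-2, mrpl-16, mrpl-18 and mrpl-20 of the large subunit and mrps-16, mrps-22, mrps-26 and mrps-34 of the small one, of which mrps-22 lies 105 bp behind dap-3 on the same strand. The genes mrpl-1 and mrps-24 lie on opposite strands with the start of emc-6 between them. They had peaks in replicate 3 only, and the strongest, 7.58, lies in the windows of both. The gene mrps-5, given for its known role, had no pooled peak, with summits in replicate 2 (signal 2.83, percentile 40.5) and replicate 3 (5.33, percentile 52.6) 514 and 630 bp upstream. Absence from a list means only that no entry was listed there, since the depth of the libraries is unknown.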

How the data were processed

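ChIP-seq of tagged ATTF-4 was represented by 5 deposited peak lists on ce11. Per the deposited file notes, a list was made for each biological replicate from 1 alignment and a control, a pooled list from all 3 alignments and a control, and the final set from those lists. Signal and −log10 q-value are used as the authors deposited them. Which programs aligned the reads and called the peaks, and with what settings, is not stated in the labels or notes. Lists on ce10 were left out.

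Ranks, windows, neighbours, GC and motifs were computed with Python 3.11.15, numpy 2.4.6, pandas 2.3.3 and matplotlib 3.10.9. Genes came from Ensembl release 115. Replicate summits within 100 bp of a pooled summit were matches. A gene overlapped by its neighbour counted as close. Of 43 names tried for the other mitochondrial genes 18 were unmatched. Genes were named if they had a final-set peak, were among the 30 strongest by pooled promoter signal or had a peak in all 3 replicate lists, with 3 genes of each other list. With 1 group there was no test. Members and lists were chosen with earlier results of these data known. The window rule was tested on simulated summits and recovered 1200 of 1200.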

Additional observations from a re-analysis of the deposited data

How the results depend on the processing

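The number of mitochondrial ribosomal protein genes with a pooled peak, 33, stayed within 1.5 times under the other windows, interval overlap, nearest-gene assignment and other transcript starts (22 to 46). The share was 35.7%, beside 20.25% of all protein-coding genes, with 500 bp upstream and 100 bp downstream. With 2000 bp upstream it was 65.7%, beside 46.5%. Interval overlap gave 54.3%, beside 37.7%, and other transcript starts 48.6%, beside 36.0%. The share of all genes thus moved in the same direction as that of these genes. The number was 19 in the stronger 50% of the pooled list (27.1%, beside 18.7% of all protein-coding genes). Among the 1000 strongest peaks it was 2 (2.86%, beside 2.41%). With nearest genes only, the share was 31.4%, beside 26.9% of all protein-coding genes, and that of cytosolic ribosomal protein genes was 48.1% in place of 82.7% and that of respiratory chain genes 36.6% in place of 57.7%. The count with a peak in all 3 replicate lists, 4, was 1 with 500 bp upstream and 100 bp downstream, 15 with 2000 bp upstream and 0 in the stronger 50% of each list. Leaving out 1 replicate gave 9 to 17 genes, with 14 without replicate 1, 17 without replicate 2 and 9 without replicate 3. Matched pooled peaks, 1, were 0 within 50 bp and 0 in the stronger 50% of each list, and 2 to 6 with 1 replicate left out, 6 of them without replicate 2. For these replicate counts no share over all protein-coding genes is at hand under the changed settings. A longer window or fewer required lists can only keep or raise such a count for any gene list. The changes are therefore no result about these genes in particular. The median signal, 9.67, was 10.8 in the shorter window and 10.7 with nearest genes only. The median summit position, -337 bp, was -140 bp in the shorter and -775 bp in the longer window, as the window itself sets it. Mean GC, 36.2%, was 38.7% within 50 bp and 35.6% within 250 bp. With 50 bp these peaks were above all promoter peaks (37.5%), with 250 bp below them (36.4%). The autosomal background and the TGCGC count were added after seeing the data. No paired analysis was possible because the study has 1 group and no test. With depth unknown, weak entries of the pooled list cannot be told apart from background.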

Other observations

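The bodies of the mitochondrial ribosomal protein genes held 25 pooled peaks outside the promoter windows of all 70 genes. After that of mrpl-37 (15.96) the strongest was in mrpl-44 (15.05), which encodes a large subunit protein of the ribonuclease III family and had no promoter peak in any list. Both were named after their values were seen. The other final-set peaks nearest to the 70 genes lay 2398 bp from mrps-6, with egg-5 as the gene nearest to the summit, and 5892 bp from mrpl-32, with ufbp-1 nearest.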
